A study of Mus musculus with 12 samples.

Results

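The keratin-associated proteins are encoded by the Krtap genes, which were taken here as every row of the deposited table whose symbol starts with Krtap. Of 25070 rows in the table, 53 were Krtap genes in 26 subfamilies, a subfamily being the number before the hyphen. Members had to reach at least 1 CPM (reads of a gene per M reads of its library, M meaning mega) in at least 2 of the 12 libraries, and all 53 did. No member lay just outside that rule. The members nearest to it from inside were Krtap5-3 and Krtap20-2, whose second highest levels were 1.98 and 3.80 CPM.

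RNA was sequenced from mouse skin biopsies in a study of repeated tick infestation. The groups were unbitten skin of naive mice (n = 2), and bitten skin after a first exposure (n = 3), from mice labelled ticks 2x (n = 3), from mice labelled ticks 3x (n = 3) and from a mouse labelled saliva immune (n = 1). Every label places the biopsy 4 days after the tick bite, the unbitten skin included. The labels do not say whether libraries came from separate mice, so p-values measure the spread between these libraries, which may be technical, and the labels give no strain, sex, age or tick species. First exposure and saliva immune carry one numbered series of titles and the other groups carry another, so that a difference between first exposure and any other group in the tests cannot be told apart from a difference between the title series.

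Keratin-associated proteins fill the space between the keratin filaments of the hair shaft and are cross-linked to them, largely through disulfide bonds. They are made late in hair formation, in the cortex and cuticle of the growing (anagen) shaft, and a resting follicle makes none or little of them. Cysteine-rich members include subfamilies 1 to 5, 9, 10, 12 and 17, and members rich in glycine and tyrosine include subfamilies 6, 7, 8 and 19 to 22. In human hair, subfamilies 5, 10 and 12 have been placed in the cuticle.

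Krtap genes were abundant in some libraries of every replicated group and close to absent in others of the same group. Their summed level was 3108 and 11.1 CPM in the naive libraries. It was 9434, 13780 and 17.4 CPM after first exposure, 6997, 51.1 and 13.9 CPM in ticks 2x, and 380.1, 1385 and 20.2 CPM in ticks 3x. In the saliva immune library it was 11.6 CPM. The highest library of a group therefore exceeded the lowest by 279.8-fold in naive skin, 791.5-fold after first exposure, 503.1-fold in ticks 2x and 68.5-fold in ticks 3x. In the library with the highest sum, first exposure replicate 2, the family made up 1.38% of all reads in genes. The number of members at 1 CPM or more was 50 and 1 in naive skin, 53, 53 and 1 after first exposure, 53, 11 and 1 in ticks 2x, 41, 48 and 1 in ticks 3x, and 1 in saliva immune. In bulk skin, fewer cells of a type and less RNA per cell cannot be told apart.

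**Figure D1:**
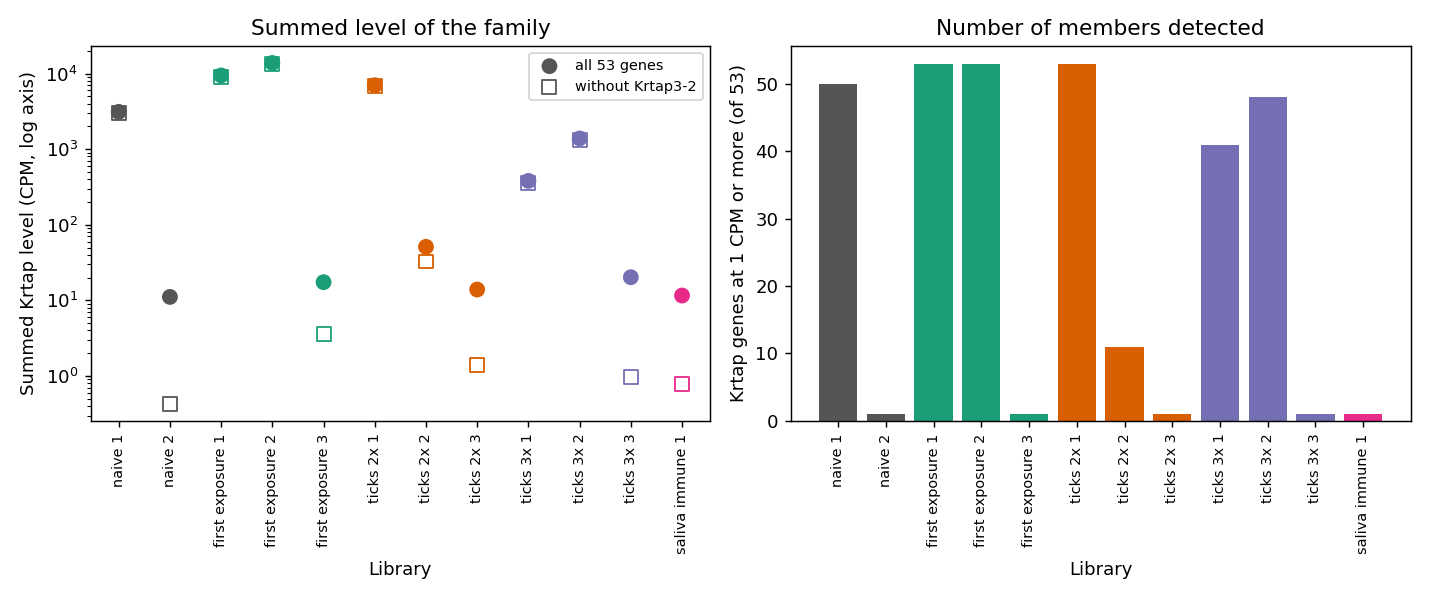
Summed level of the 53 Krtap genes in each library (left, CPM on a log axis; filled circles, all members; open squares, without Krtap3-2) and number of members at 1 CPM or more (right). Colours mark the 5 groups and each mark is 1 library. Libraries with 41 to 53 members at that level and libraries with 1 stand side by side in all 4 replicated groups.

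Estimated depth was 12.5 M to 29.8 M reads per library. It was 29.8 M and 12.5 M reads in naive replicates 1 and 2, and 28.6 M, 17.9 M and 23.2 M after first exposure. A floor of 3 reads corresponded to between 0.101 and 0.24 CPM, and it covers counting error only. Members listed at 0 numbered 0 and 50 in naive skin, 0, 0 and 33 after first exposure, 0, 9 and 44 in ticks 2x, 0, 1 and 44 in ticks 3x, and 43 in saliva immune.

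The highest member per length was Krtap7-1, and Krtap8-1 was next, at 620.1 and 599.1 CPM per kb as means over the 12 libraries, in which the libraries richest in the family weigh most. Within single libraries, Krtap7-1 was the highest per kb in 4 (naive replicate 1, first exposure replicates 1 and 2, and ticks 3x replicate 2), Krtap8-1 in 2 (ticks 2x replicate 1 and ticks 3x replicate 1) and Krtap3-2 in the other 6. Krtap7-1 and Krtap8-1 are single-gene subfamilies on chromosome 16 that encode small glycine- and tyrosine-rich proteins of the hair cortex. Krtap7-1 had 420.9 CPM in naive replicate 1 and was listed at 0 in naive replicate 2. It had 1233, 1760 and 0.345 CPM after first exposure, 978.1 and 3.49 CPM in ticks 2x replicates 1 and 2, and 39.2 and 185.6 CPM in ticks 3x replicates 1 and 2. It was listed at 0 in replicate 3 of ticks 2x and of ticks 3x. Krtap8-1 was high and low in the same libraries, with 352.0 CPM in naive replicate 1 and a listing at 0 in replicate 2. Its levels were 1100, 1586 and 0.647 CPM after first exposure, 915.0, 3.33 and 0.186 CPM in ticks 2x, and 39.8, 165.5 and 0.0997 CPM in ticks 3x. Every pair of replicated groups overlapped for both genes. By the same means, next per length came Krtap15, at 288.3 CPM per kb, and then Krtap3-1, at 185.5 CPM per kb. At the other end stood Krtap5-1, Krtap5-2 and Krtap5-3, at 1.78, 0.994 and 0.574 CPM per kb. The reference lengths used for this scale differed by more than 1.5 times between RefSeq and GENCODE for 3 members, Krtap1-4, Krtap4-8 and Krtap9-1.

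**Figure D2:**
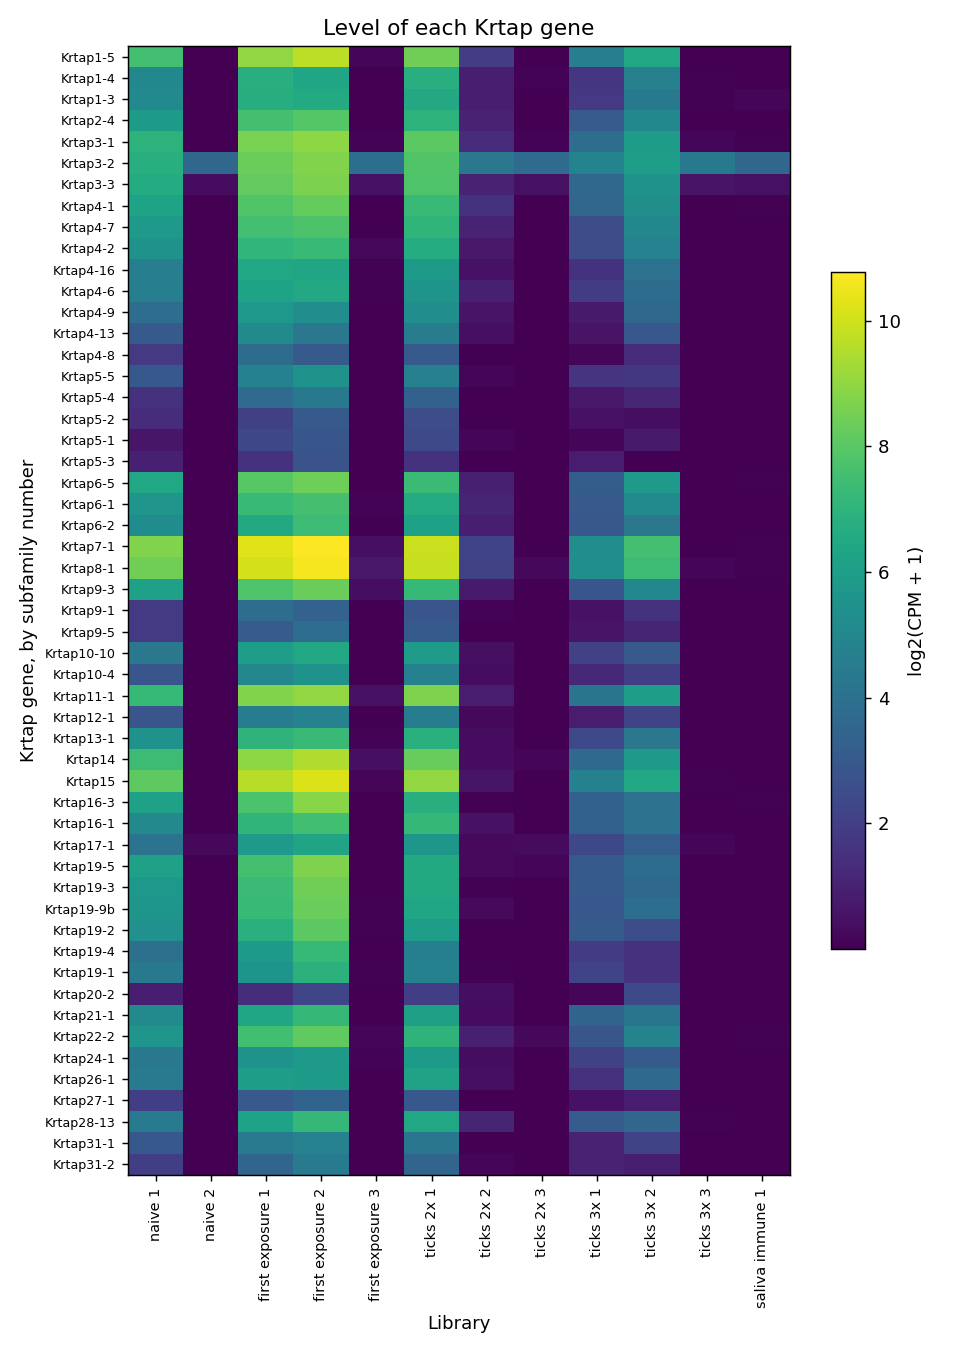
Level of each of the 53 Krtap genes (rows, by subfamily number and then by mean level) in the 12 libraries (columns), as log2(CPM + 1). Nearly all rows switch together between the same libraries, and the row of Krtap3-2 keeps a level of at least 10.7 CPM in every library.

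Krtap3-2 departed from the rest of the family. It was singled out after its values were seen. It encodes a cysteine-containing protein of the hair cortex and lies on chromosome 11, at chr11:99555823-99556853 on the minus strand (GRCm38.p6). Its level was 106.1 and 10.7 CPM in the naive libraries, 324.4, 423.3 and 13.8 CPM after first exposure, 229.9, 18.4 and 12.5 CPM in ticks 2x, 28.0, 62.7 and 19.3 CPM in ticks 3x, and 10.8 CPM in saliva immune. It was thus the member at 1 CPM or more in each of the 5 libraries where a single member reached that level. There it supplied 79.6% to 96.1% of the summed family level, from an estimated 134 to 386 reads, while in the 4 libraries richest in the family it supplied 3.07% to 3.44%. Without Krtap3-2, the summed level in those 5 libraries was 0.429 CPM in naive replicate 2, 3.56 CPM in first exposure replicate 3, 1.39 CPM in ticks 2x replicate 3, 0.971 CPM in ticks 3x replicate 3 and 0.792 CPM in saliva immune.

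The neighbours Krtap3-1 and Krtap3-3, of the same subfamily, did not share that floor. Krtap3-1 had 123.0 CPM and a listing at 0 in the naive libraries, 389.3, 488.5 and 0.0864 CPM after first exposure, 267.7, 1.58 and 0.0622 CPM in ticks 2x, and 13.4, 60.7 and 0.0997 CPM in ticks 3x. Krtap3-3 had 97.4 and 0.264 CPM in the naive libraries, 295.4, 403.6 and 0.432 CPM after first exposure, 225.8, 1.13 and 0.392 CPM in ticks 2x, and 11.0, 44.7 and 0.468 CPM in ticks 3x. The level of Krtap3-3 was 91.1% to 98.2% of that of Krtap3-2 in the 4 libraries richest in the family, and 2.43% to 3.67% of it in the 5 poorest. Of the 50-base stretches of the Krtap3-3 transcript, 41.3% also occur in Krtap3-2, and 5 of its 6 levels below 3 CPM were not whole multiples of 1 read. The counting could split such reads between these genes, so the low levels of Krtap3-3 are uncertain. Krtap3-1 shares 8.83% of its stretches with other transcripts.

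The promoters of this subfamily are shown beside those of a gene that follows the family closely (Krtap8-1) and of genes that moved apart between libraries (Krtap4-9 and Krtap19-1, see the ratios by subfamily). Each line gives the 150 bases before the annotated start, from RefSeq on GRCm38.p6, with TATAAA in capitals where a search found it on the strand of the gene.
Krtap8-1 (chr16:89487953-89488102, minus strand): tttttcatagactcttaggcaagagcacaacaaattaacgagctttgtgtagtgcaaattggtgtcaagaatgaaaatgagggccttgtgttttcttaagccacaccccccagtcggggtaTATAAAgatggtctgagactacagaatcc
Krtap3-1 (chr11:99566631-99566780, minus strand): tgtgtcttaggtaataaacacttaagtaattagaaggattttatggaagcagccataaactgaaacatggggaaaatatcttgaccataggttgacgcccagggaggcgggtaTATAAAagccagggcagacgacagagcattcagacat
Krtap3-2 (chr11:99556854-99557003, minus strand): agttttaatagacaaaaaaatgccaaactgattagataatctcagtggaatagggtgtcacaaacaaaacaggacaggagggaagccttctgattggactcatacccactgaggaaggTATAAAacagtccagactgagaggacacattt
Krtap3-3 (chr11:99550864-99551013, minus strand): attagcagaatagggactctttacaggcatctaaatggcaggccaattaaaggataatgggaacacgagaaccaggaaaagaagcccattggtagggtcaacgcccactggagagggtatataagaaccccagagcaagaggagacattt
Krtap4-9 (chr11:99785050-99785199, plus strand): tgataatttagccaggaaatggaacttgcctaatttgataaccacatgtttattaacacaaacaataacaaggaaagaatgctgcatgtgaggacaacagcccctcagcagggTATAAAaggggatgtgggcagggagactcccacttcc
Krtap19-1 (chr16:88869411-88869560, minus strand): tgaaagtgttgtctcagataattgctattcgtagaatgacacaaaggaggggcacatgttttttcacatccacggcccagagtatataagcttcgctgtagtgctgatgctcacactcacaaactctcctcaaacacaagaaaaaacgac
In the full window of 300 bases (250 before the start and 50 after it), searched on both strands, TATAAA occurred in 39 of the 48 Krtap promoters with a sequence (81.2%), against 13.6% of 32851 promoters of all genes. On the strand of the gene, between 40 and 16 bases before the start, it occurred in 29 of 48 (60.4%), against 1.99% of all. Krtap3-1 and Krtap3-2 have it 37 and 32 bases before the start. In Krtap3-3 and Krtap19-1 those exact letters are not in the window. Both printed sequences hold the close form tatataag, which the search did not cover. The letters CTTTG followed by a pair of letters that are A or T, a core that LEF1 and TCF factors bind, occurred in 18 of 48 windows (37.5%), against 16.9% of all. A core bound by HOXC13, searched as TTTATN or TTAATN followed by a pair of purines, occurred in 25 of 48 (52.1%), against 18.9% of all. These cores were searched on both strands and can overlap TATAAA. A match is a description of the letters and not of a bound site.

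The family lies in gene clusters. Chromosome 11 holds 22 members within 443.9 kb and chromosome 16 holds 22 within 960.5 kb. A further 5 lie on chromosome 7, 3 on chromosome 10 and 1, Krtap28-13, on chromosome 1. By their coding sequence, 20 members have cysteine at over 30% of codons, among them all 8 of subfamily 4 and all 5 of subfamily 5. A further 15 have tyrosine at over 10% of codons, and all 15 lie on chromosome 16. The remaining 18 pass neither limit. Krtap28-13 has the highest share of cysteine codons, 42.8%, and Krtap8-1 has 4.92% cysteine codons against 47.5% glycine and tyrosine codons.

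**Figure D3:**
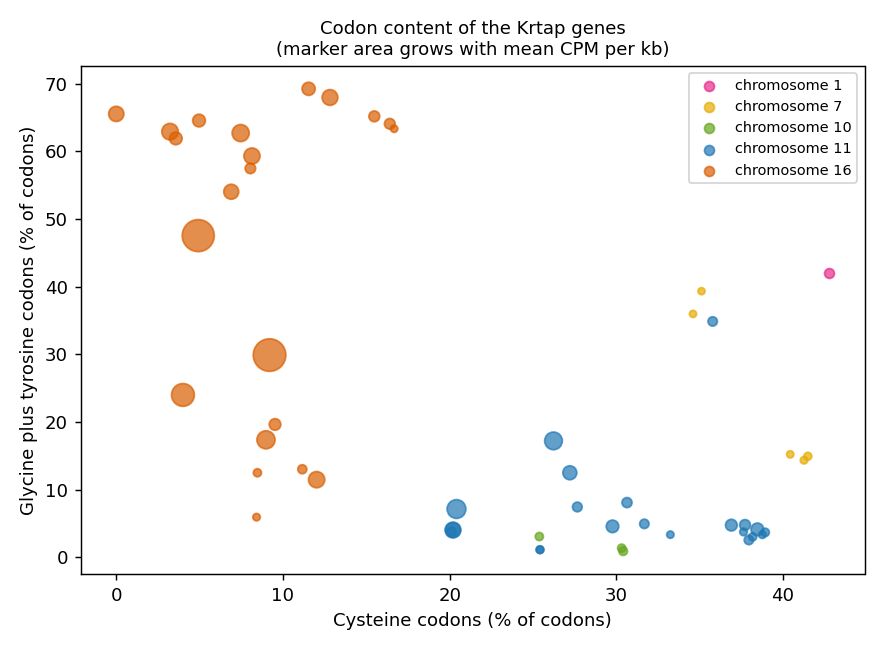
Cysteine codons (horizontal, % of codons) against glycine plus tyrosine codons (vertical, % of codons) of the 53 Krtap genes, from GENCODE vM21. Colour marks the chromosome, and the marker area grows with the mean CPM per kb over the 12 libraries. The largest markers, Krtap7-1 and Krtap8-1, are on chromosome 16 at 9.20% and 4.92% cysteine codons.

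The codon classes and chromosome clusters held similar shares of the family in the libraries that expressed it. In the 6 libraries with at least 20 members at 1 CPM (naive replicate 1, first exposure replicates 1 and 2, ticks 2x replicate 1, and ticks 3x replicates 1 and 2), the tyrosine-rich class held 41.2% to 47.6% of the summed level. The cysteine-rich class held 10.5% to 14.6% and the remaining class 41.9% to 45.2%. The cluster on chromosome 16 held 58.9% to 67.2% of the sum and that on chromosome 11 held 29.97% to 39.0%. The 5 most abundant genes of a library held 40.9% to 45.4% of its sum, and Krtap7-1, Krtap8-1, Krtap15 and Krtap1-5 were among them in all 6. Across members, the order of levels had a Spearman correlation of 0.751 to 0.991 in the 15 pairs of these libraries (median 0.93, over 40 to 53 members). It is a description across genes, which share the libraries and their own lengths and are no independent replicates. Ticks 3x replicates 1 and 2 gave the lowest value.

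Some subfamilies shifted within that common order. The share of the sum held by a subfamily varied by less than 2-fold over the 6 libraries in 16 of 26 subfamilies, and least for subfamily 8 (1.25-fold). It varied most for subfamily 20, whose only gene is Krtap20-2 (17.4-fold, between 0.0174% and 0.304%), and by 3.02 to 3.45-fold for subfamilies 5, 19, 21 and 28. The 6 genes of subfamily 19, small glycine- and tyrosine-rich proteins, held 8.02% in naive replicate 1, 7.70% and 11.7% in first exposure replicates 1 and 2, 5.45% in ticks 2x replicate 1, and 9.19% and 3.39% in ticks 3x replicates 1 and 2. Subfamily 4, with high cysteine, held 7.84% in naive replicate 1, 8.64% and 6.50% in first exposure replicates 1 and 2, 8.04% in ticks 2x replicate 1, and 6.96% and 10.5% in ticks 3x replicates 1 and 2. The library highest for subfamily 19 was lowest for subfamily 4, and the library lowest for subfamily 19 was highest for subfamily 4. Both extremes fell within bitten groups, whose other library lay on the opposite side of naive replicate 1.

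Within ticks 3x, replicate 2 had 3.70-fold the level of replicate 1 at the median of all members, with 47 members higher and 6 lower. The 8 genes of subfamily 4 were all higher, by 3.70 to 15.1-fold, and the 3 of subfamily 1 by 3.75 to 10.8-fold. Krtap4-9 had 11.0 CPM in replicate 2 and 0.73 CPM in replicate 1. Of subfamily 19, 3 genes were higher and 3 lower. Krtap19-1 was among the lower ones, with 1.92 CPM in replicate 2 and 3.55 CPM in replicate 1, as were Krtap19-2 (4.77 and 7.30 CPM) and Krtap19-4 (1.87 and 2.82 CPM). The other lower members were Krtap5-2, Krtap5-3 and Krtap31-2, none of which exceeded 1.05 CPM in either library. Krtap20-2 had the highest ratio, with 4.21 CPM in replicate 2 against 0.146 CPM in replicate 1, where its level is worth 3 reads. Krtap4-9, Krtap19-2, Krtap5-2 and Krtap31-2 were named after their values were seen. A ratio between 2 libraries has no replicate and was not tested.

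Among the 6 libraries, replicate 1 of ticks 3x also held the largest share of the cuticle-associated subfamily 5. That share was 1.09% against 0.34% in replicate 2, while the summed level was 4.162 and 4.705 CPM. Krtap5-1 and Krtap5-5 share 59.9% and 28.4% of their 50-base stretches with other transcripts, so low levels in this subfamily are uncertain. The share of subfamily 17 was also largest in replicate 1 of ticks 3x, at 1.06% against 0.594% in replicate 2. The other cuticle-associated subfamilies, 10 and 12, were highest in ticks 2x replicate 1, at 1.246% and 0.329%. In ticks 3x replicates 1 and 2, subfamily 10 held 1.237% and 0.721%, whereas subfamily 12 held 0.205% and 0.267%. Subfamily 28, with the single gene Krtap28-13, held 2.06% in replicate 1 and 0.78% in replicate 2. Its levels were 7.84 CPM in replicate 1 and 10.8 CPM in replicate 2, while Krtap8-1 had 39.8 and 165.5 CPM. Krtap5-5, the highest of subfamily 5, had 2.12 CPM in replicate 1 and 2.39 CPM in replicate 2.

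After first exposure, replicate 2 had 1.43-fold the level of replicate 1 at the median, with 45 members higher and 8 lower. All 15 tyrosine-rich members were higher, by 1.27 to 2.61-fold with a median of 2.08-fold, and the 6 of subfamily 19 by 2.08 to 2.61-fold. Of the 20 cysteine-rich members, 14 were higher and 6 lower, with a median of 1.34-fold. The lowest ratio was that of Krtap4-13, 18.4 CPM in replicate 2 against 34.5 CPM in replicate 1, a gene that shares 81.3% of its 50-base stretches with another transcript.

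**Figure D4:**
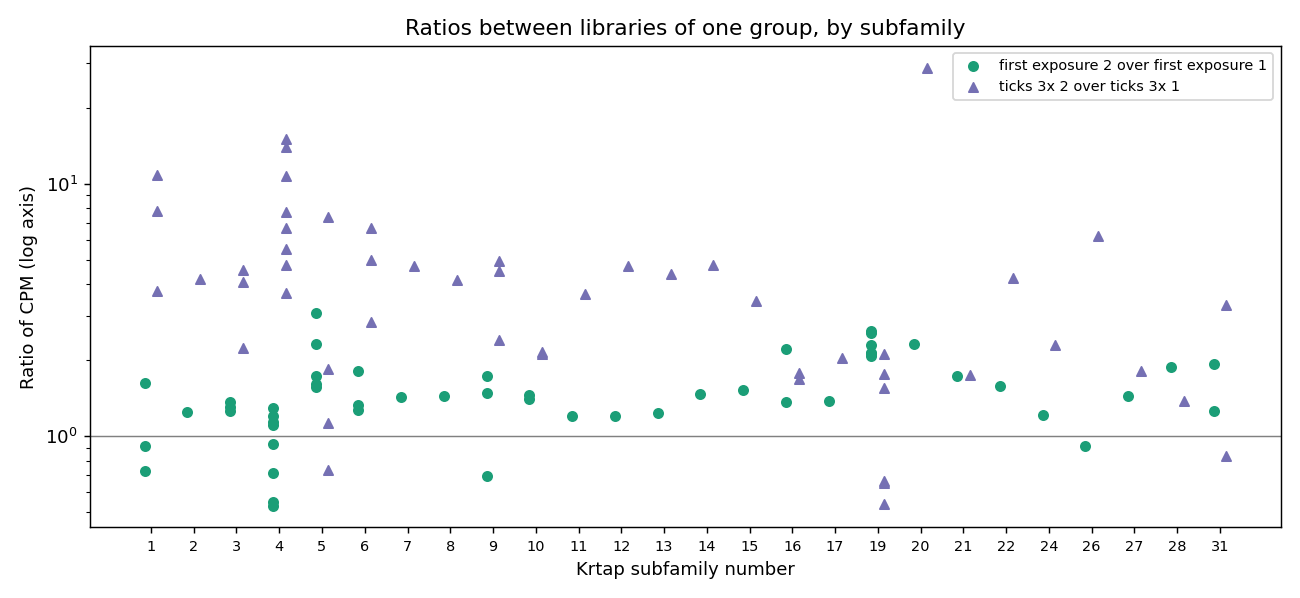
Ratio of CPM between libraries of 1 group for each member, on a log axis, by subfamily number (circles, first exposure replicate 2 over replicate 1; triangles, ticks 3x replicate 2 over replicate 1). Each mark is 1 gene, and Krtap5-3 is not drawn for ticks 3x because it was listed at 0 in replicate 2. Triangles of subfamily 4 lie between 3.70 and 15.1, whereas those of subfamily 19 lie on both sides of 1.

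No member passed the test in any comparison. In limma on log2(CPM + 1), with Benjamini-Hochberg adjustment over the 17064 genes tested, 0 of 53 passed an adjusted p of 0.05 in each of the 6 comparisons of the 4 replicated groups. At an unadjusted limma p under 0.05 the count was also 0 of 53 in each. Of all 17064 genes, 2798, 1867 and 1186 passed that limit for first exposure, ticks 2x and ticks 3x against naive. Against first exposure, 2710 passed it for ticks 2x and 3035 for ticks 3x, and 878 did for ticks 3x against ticks 2x. At the adjusted threshold, the share of all genes called was 0.0117% for first exposure, 0.0352% for ticks 2x and 0.00586% for ticks 3x against naive. It was 0% for ticks 2x against first exposure, for ticks 3x against first exposure and for ticks 3x against ticks 2x. Nor did the libraries of any compared groups stand clear of each other for any member, against 35%, 27.6%, 25.1%, 17.7%, 21.3% and 11.7% of all genes tested in the same order of comparisons. The 3 comparisons with naive skin share its libraries.

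In most members the spread inside groups exceeded the differences between them. For 38 of 53 members, the range within each of the 4 groups on the log2(CPM + 1) scale was larger than the largest absolute log2 fold change of that member in the 6 comparisons. For 49 of 53 this held in at least 3 groups. The share of all genes tested with such ranges was not taken, so these counts do not set the family apart. They also place a range of single libraries against a difference of group means. At the median of members, the range was 5.03 in naive skin, 7.03 after first exposure, 6.18 in ticks 2x and 3.81 in ticks 3x.

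In first exposure against naive, all 53 members had a log2 fold change above 0, with a median of 2.01, and the median of all genes tested was 0.08. Krtap8-1 had the highest fold change of the family. It averaged 896 ± 812 CPM after first exposure and 176 ± 248.9 CPM in naive skin (SD, n = 3 and 2), with a log2 fold change of 2.92, SE 3.99 and limma adjusted p = 0.726. The smallest fold change, 0.77, was that of Krtap20-2. Left out singly, naive replicate 2 brought the family median to -0.39, and naive replicate 1 brought it to 4.44. The lowest adjusted p in the family, 0.449, was that of Krtap5-1, at 3.51 ± 3.28 CPM after first exposure and 0.28 ± 0.396 CPM in naive skin. The median SE over the family was 2.63, against 0.26 over all genes.

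Ticks 2x against naive gave 18 members above 0 and 35 below. The median log2 fold change was -0.12, and all genes had a median of 0.01. Each fold change is a difference of mean log2(CPM + 1), and its direction can differ from that of the mean CPM. The family sum averaged 2354 ± 4021 CPM in ticks 2x and 1560 ± 2190 CPM in naive skin (SD, n = 3 and 2), opposite to the median. The fold changes ran from -0.84 for Krtap15 to 0.52 for Krtap5-1, and the lowest adjusted p was 0.886. Krtap15 averaged 175 ± 303 CPM in ticks 2x and 139 ± 196 CPM in naive skin, so its mean CPM and its fold change went opposite ways. In ticks 3x against naive, 3 members were above 0 and 50 below, with a median of -0.36, against 0.02 for all genes. The range ran from -0.95 for Krtap19-1 to 0.41 for Krtap20-2, and the lowest adjusted p was 0.959. Without naive replicate 1, the medians were 2.20 for ticks 2x and 2.07 for ticks 3x against naive. The median for ticks 2x was also above 0 without its replicate 2 (0.61) or 3 (0.93), and that for ticks 3x without its replicate 3 (0.55).

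All 53 members had a negative log2 fold change in ticks 2x against first exposure, with a median of -2.27, and all genes had a median of -0.08. The lowest was that of Krtap15, at -3.45, and the lowest adjusted p was 0.493. In ticks 3x against first exposure all 53 were negative again, with a median of -2.37, against -0.04 for all genes. Krtap19-4 averaged 1.56 ± 1.44 CPM in ticks 3x and 68.2 ± 74.1 CPM after first exposure (SD, n = 3 each), with a log2 fold change of -3.21, SE 1.97 and limma adjusted p = 0.378. The lowest adjusted p in that comparison was 0.348. These comparisons share the first exposure libraries, whose replicate 3 had a family sum of 17.4 CPM. Ticks 3x against ticks 2x had a median of -0.21, with 18 members above 0 and 35 below, and a lowest adjusted p of 0.947. Its median was 1.65 without ticks 2x replicate 1 and 0.67 without ticks 3x replicate 3. In both comparisons with first exposure the median stayed below 0 whichever library was left out, between -4.59 and -0.96 for ticks 2x and between -4.55 and -1.23 for ticks 3x.

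**Figure D5:**
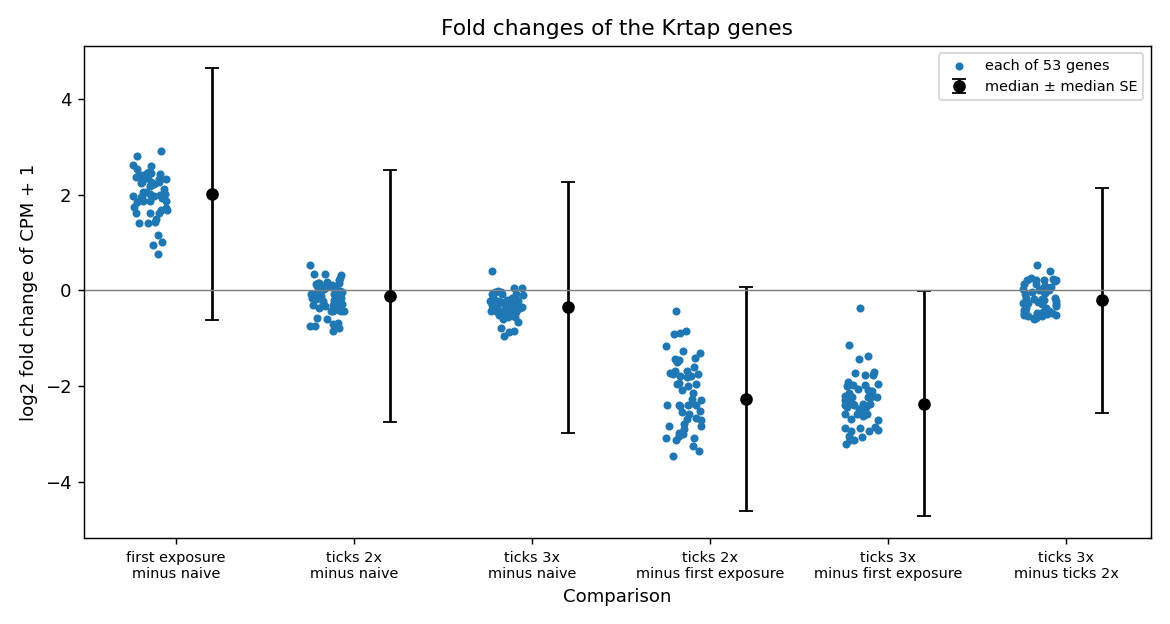
log2 fold change of CPM + 1 of the 53 Krtap genes in the 6 comparisons (points), each named group minus the group under it, with the family median and the median SE (black, right of the points). The median SE bar crosses 0 in ticks 2x and ticks 3x against naive, in first exposure against naive, in ticks 2x against first exposure and in ticks 3x against ticks 2x, and in ticks 3x against first exposure it ends next to 0.

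The codon classes were also compared. In first exposure against naive the median log2 fold change was 2.35 for the 15 tyrosine-rich members, 1.90 for the 20 cysteine-rich members and 2.14 for the remaining 18. In ticks 3x against first exposure it was -2.87, -2.22 and -2.42 in that order of classes. Members of low level have smaller fold changes on this scale because of the added 1, so the classes cannot be ranked by these values.

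Hair shaft keratins, the type I and type II keratins that the Krtap proteins bind, varied with the family. The summed level of 15 of them was 2391 and 7.19 CPM in the naive libraries, 6994, 9927 and 14.7 CPM after first exposure, 6137, 32.6 and 4.53 CPM in ticks 2x, 325.0, 1082 and 5.48 CPM in ticks 3x, and 3.51 CPM in saliva immune. The Krtap sum over the hair shaft keratin sum was 1.14 to 1.56 in the 9 libraries of naive skin, first exposure, ticks 2x replicates 1 and 2 and ticks 3x replicates 1 and 2, and 3.07 to 3.69 in the other 3. Without Krtap3-2 that ratio was 1.26 and 0.0596 in the naive libraries, 1.30, 1.35 and 0.243 after first exposure, 1.10, 1.00 and 0.307 in ticks 2x, 1.08, 1.22 and 0.177 in ticks 3x, and 0.225 in saliva immune. In the 5 libraries poorest in the family, the ratio of the full sum is thus largely that of Krtap3-2. The keratin sum in those libraries was led by Krt36 and Krt32, named after their values were seen. They had 3.755 and 1.358 of 7.19 CPM in naive replicate 2, and 2.59 and 1.494 of 5.48 CPM in ticks 3x replicate 3. The low ratios there therefore do not describe the keratins as a set. Krt33a, a keratin of the cortex and the highest of the list, had 337.4 and 0.08 CPM in the naive libraries, 1024, 1465 and 0.448 CPM after first exposure, 950.3, 4.12 and 0.248 CPM in ticks 2x, and 44.1, 156.8 and 0.249 CPM in ticks 3x. Of the list, 0 of 15 tested passed the adjusted threshold in any comparison, against 0% to 0.0352% of all genes. At an unadjusted limma p under 0.05, 0 of 15 passed in any comparison, against 878 to 3035 of the 17064 genes. The medians of the list were 2.52 in first exposure against naive and -2.56 in ticks 3x against first exposure, close to those of the Krtap genes.

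Genes of the inner root sheath, which moulds the growing shaft, moved with the same libraries. Their sum was 7346 and 6.95 CPM in the naive libraries, 24800, 27010 and 49.0 CPM after first exposure, 22870, 150.4 and 4.72 CPM in ticks 2x, and 1196, 4792 and 6.43 CPM in ticks 3x. Tchh (trichohyalin) reached 9484 CPM in first exposure replicate 2. Padi3, which converts arginine to citrulline in trichohyalin and related substrates, had 475.0, 533.0 and 0.82 CPM after first exposure. S100a3, a calcium-binding protein of the hair cuticle, had 520.3, 685.9 and 1.21 CPM in those libraries. Of the 7 keratin crosslinking genes these were the 2 highest, and not all followed them. Tgm5 had 14.0, 13.4 and 20.8 CPM after first exposure, and Qsox1 was highest in ticks 2x replicate 2, at 183.9 CPM. Tgm1 ran only from 63.4 to 144.3 CPM over the 12 libraries. Hoxc13, a homeodomain factor required for normal hair shafts and known to act on Krtap and hair keratin genes in mice, had 53.3 and 7.03 CPM in the naive libraries, 178.2, 193.2 and 2.76 CPM after first exposure, 185.9, 5.12 and 5.21 CPM in ticks 2x, and 18.0, 38.5 and 6.23 CPM in ticks 3x. Hoxc13 was named after its values were seen. The 2 highest of the 12 hair matrix regulators, Ctnnb1 and Gata3, differed much less between libraries. Ctnnb1 had 497.8 and 423.3 CPM in the naive libraries and 697.3, 734.2 and 366.7 CPM after first exposure. Gata3 had 234.6 and 226.2 CPM in the naive libraries and went the other way after first exposure, with 257.7, 241.6 and 399.1 CPM.

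The sum of 5 melanocyte genes was also highest in the libraries with Krtap RNA, at 170.1 and 30.1 CPM in the naive libraries, 1171, 2079 and 16.8 CPM after first exposure, 674.8, 9.03 and 16.9 CPM in ticks 2x, and 66.5, 114.1 and 19.4 CPM in ticks 3x. The 7 genes of the resting follicle and its stem cells were mixed. Their sum, most of it Krt15, was 1536 and 2080 CPM in the naive libraries, 1082, 839.9 and 2158 CPM after first exposure, 1558, 1926 and 1823 CPM in ticks 2x, and 1920, 1604 and 1842 CPM in ticks 3x. Krt15 had 893.3 and 1410 CPM in the naive libraries, 642.4, 497.2 and 1568 CPM after first exposure, 906.2, 1510 and 1360 CPM in ticks 2x, and 1384, 962.2 and 1453 CPM in ticks 3x. Lgr5, a stem cell receptor named after its values were seen, had 18.0 and 15.3 CPM in the naive libraries, 48.9, 45.7 and 3.54 CPM after first exposure, 43.1, 4.65 and 6.53 CPM in ticks 2x, and 10.6, 20.1 and 4.33 CPM in ticks 3x. Like the Krtap genes, Lgr5, Lhx2 and Sox9 were highest in first exposure replicates 1 and 2 and ticks 2x replicate 1. They differed little between the naive libraries. Cd34, the next highest of the list after Krt15, and Nfatc1 were instead lowest in first exposure replicates 1 and 2. Cd34 had 202.2, 130.2 and 477.1 CPM after first exposure, and Nfatc1 had 28.8, 19.6 and 59.8 CPM. Lhx2, Sox9 and Nfatc1 were named after their values were seen. Markers of the epidermis, which defines the labelled tissue, were present in every library, with a sum of 4663 CPM in first exposure replicate 2 at the lowest and 21710 CPM in ticks 2x replicate 2 at the highest. Dermal fibroblast genes summed to 4494 CPM in ticks 3x replicate 3 at the lowest and 15550 CPM in ticks 2x replicate 2 at the highest. Of the lists for hair matrix regulators, resting follicle, keratin crosslinking, melanocyte, inner root sheath, sebaceous gland, epidermis and dermal fibroblast, 0 members were called in any comparison. At an unadjusted limma p under 0.05, all of these lists but melanocyte and inner root sheath had 1 or 2 members in some comparison. The part of follicle stage or content in the Krtap differences was not tested.

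Counting between near-identical genes limits single members. Of 132 Krtap values below 3 CPM, 100 were whole multiples of 1 read within 0.02 reads. Among the 22 members that share over 10% of their 50-base stretches with another transcript, 27 of 52 such values were not whole, against 5 of 80 in the other 31 members and 0 of 41 in the 16 of those with no shared stretch. Krtap7-1, Krtap8-1 and Krtap15 share no stretch with another transcript.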

How the data were processed

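RNA was measured in 12 skin libraries, grouped by their labels. Per the submitters' processing notes, STAR, Partek 8.0.19 and the build GRCm38.p6 were used, and the counting program is not given in the sources used here. The deposited table holds CPM values, each raised by 0.0001 by the authors, so a cell at 0.0001 is described as listed at 0. Columns sum to between 998572 and 998966. Depth was estimated from the CPM step worth 1 read. Only 73.6% to 79.4% of low values in a library were whole multiples of that step, so reads were not recovered and no count model was used.

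The test was that of limma 3.58.1 (R 4.3.3), run on log2(CPM + 1) in a model of 4 group means with a trend in the prior variance, 11 libraries and 7 residual degrees of freedom. Genes entered it with 1 CPM or more in 2 or more libraries of the 11. The saliva immune library (n = 1) was described only. A gene was called at an adjusted p below 0.05, by Benjamini-Hochberg over the 17064 genes. The fit was tested on simulated data whose spread was much smaller than that of the Krtap genes. That check does not speak to the power for this family. Fold changes on this scale understate changes of low genes. Alternatives were pseudocounts of 0.5 and 0.1, no filter or one at 5 CPM, median-of-ratios scaling, fits of the compared groups alone, robust moderation, each library left out in turn and, added after the data were seen, the mean of the hair shaft keratins as a covariate.

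Of 56 Krtap genes in RefSeq on GRCm38.p6, 53 matched by symbol, and 48 of them have a RefSeq promoter. Codon shares, and the share of 50-base stretches found in other transcripts, come from GENCODE vM21 (GRCm38). Promoter positions and lengths are those of RefSeq. The marker lists held 72 genes, of which 71 were found in the table. Genes were named by a rule, which took the highest member of each subfamily, the lowest in subfamilies of 3 or more, called members, those nearest the level limit, those with the extreme fold change of a comparison, and the 2 highest genes of each marker list. That named 36 members, of which those carrying the results are printed, and genes outside it are marked in the text. The members and lists were chosen with earlier results of these data known. Python 3.11.15, pandas 2.3.3, numpy 2.4.6, scipy 1.17.1 and matplotlib 3.10.9 were used.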

Additional observations from a re-analysis of the deposited data

How the results depend on the processing

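No Krtap gene was called in any of the 81 alternative fits over the 6 comparisons, and the lowest adjusted p of a member in any of them was 0.0601, for ticks 3x against first exposure without first exposure replicate 3. Leaving out single libraries changed the sign of the family median in 4 of the 6 comparisons, and not in ticks 2x or ticks 3x against first exposure. Leaving out 1 library at a time, it ran from -0.39 (without naive replicate 2) to 4.44 (without naive replicate 1) for first exposure against naive. It ran from -2.51 to 2.20 for ticks 2x against naive and from -2.83 to 2.07 for ticks 3x against naive, with naive replicate 2 left out at the low end and naive replicate 1 at the high end of both. It ran from -4.59 to -0.96 for ticks 2x against first exposure and from -4.55 to -1.23 for ticks 3x against first exposure, without first exposure replicates 3 and 2 at those ends. For ticks 3x against ticks 2x it ran from -1.24 without ticks 2x replicate 3 to 1.65 without ticks 2x replicate 1. Among the settings that keep all libraries and add no covariate, the median of ticks 3x against ticks 2x reached 0.10, with a pseudocount of 0.1, and no other comparison changed direction. The hair shaft keratin covariate was added after the data were seen. With it, the medians against naive were 0.20 for first exposure, 0.07 for ticks 2x and -0.23 for ticks 3x. They were -0.13 for ticks 2x and -0.44 for ticks 3x against first exposure, and -0.25 for ticks 3x against ticks 2x. These keratins rise and fall with the Krtap sum in the same libraries, so that fit takes out much of the Krtap variation by construction. No conclusion is drawn from it. Without first exposure replicate 3, calls over all genes tested numbered 600 for first exposure against naive, 137 for ticks 2x against first exposure and 1372 for ticks 3x against first exposure, none of them a Krtap gene. The cause was not tested. Summing all Krtap rows gave the same sums, since every row met the level rule. No paired analysis was possible because the titles hold running sample numbers within a series and give no replicate number. Levels under the floor of 3 reads cannot be ordered.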
